A study of Mus musculus with 9 samples.

Results

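T cell genes were followed in polyadenylated RNA of whole mouse lung as a set of 34 genes of the T cell receptor, its signalling proteins, surface and accessory receptors and lineage transcription factors. Members were the rows of the deposited gene table whose symbol matched a listed gene, with the highest mean kept where a symbol recurred. Of the 34 genes, 33 were found among the 32114 genes of the table, and Bcl11b was not analysed here. Values were FPKM, the fragments of a gene scaled by its length and by the fragments mapped in the library. A mean of at least 0.5 FPKM over the 9 libraries was needed for testing. It left 16227 genes in all and 25 of the T cell genes. The other 8 are given by their values.

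The study compared 3 groups with 3 libraries each, all from mice 12 weeks old and called adult by the labels. Controls were given sterile saline. Mice of the LPS group were given lipopolysaccharide, an endotoxin of Gram-negative bacteria, at 50 µg per animal. Mice of the LPS plus PD group were given that same dose and also breathed in nebulised PD at 10 mg/mL. By the series title PD stands for panaxadiol, a sapogenin of ginseng. The sources used here give no strain, genotype, route of LPS or time of sampling. The design text gives 6 animals per group and does not say which of them the libraries came from, so the p-values measure only the spread between libraries, which may be technical.

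T cells recognise peptides on MHC molecules through a receptor whose variable chains sit in the membrane with the CD3 and zeta signalling subunits. The kinase Lck phosphorylates these subunits, Zap70 docks on them, and the scaffold Lat passes the signal on, while receptors such as Cd28 and Icos add to it and Ctla4, Pdcd1, Btla and Tigit restrain it. The lung holds resident and circulating T cells, which are few beside its epithelial, endothelial and myeloid cells.

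Depth, recovered from the step size of the FPKM values, was 15.2 to 19.2 M reads per library. LPS replicate 2 stood apart from the other libraries: its highest correlation across genes with another library was 0.914, against at least 0.971 for each of the other 8. The labels call the mice female, but Xist lay between 0.0183 and 0.0895 FPKM and the Y-linked Ddx3y between 15.4 and 31.9 FPKM over all 9 libraries, which goes against that label. With limma, 613 of 16227 genes (3.78%) differed between LPS and control, 0 between LPS plus PD and LPS, and 128 (0.789%) between LPS plus PD and control.

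T cell transcripts were scarce in these lungs. The median of the 33 members' mean levels was 0.959 FPKM, against 5.67 FPKM for the genes tested. A single member, Tcf7, exceeded that median, and Tcf7 and Thy1 were the members with a mean of at least 5 FPKM. The markers taken as defining were Cd3d, Cd3e, Cd3g, Cd247, Trac, Cd2, Cd5 and Lck. They summed to 10.8 to 21.8 FPKM in control, 12.2 to 21.4 in LPS and 8.71 to 17.5 in LPS plus PD. Cd3d, Cd3e and Cd3g were at no less than 0.982, 0.484 and 0.759 FPKM in any library, so the T cell label held at a low level. Others are shared, such as Cd2 with NK cells and Cd5 with B-1 cells. NK and cytotoxic markers summed to 17.8 to 47.4 FPKM in control, 63.9 to 374 in LPS and 75.6 to 227 in LPS plus PD. The part of NK and B-1 cells in the T cell marker sum was not tested. Of the thymocyte genes, Ptcra was listed at 0 in all 9 libraries and Rag1 reached at most 0.0596 FPKM. In such bulk RNA, fewer T cells and less RNA per cell cannot be told apart.

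Against control, the T cell genes lay on both sides of 0 with LPS, and Tigit was the member that passed the test. With limma 0 T cell genes rose and 1 fell of 25 tested, beside 1.23% of all genes that rose and 2.55% that fell. Differences lay above 0 for 12 members and below 0 for 13, with a median of -0.05 on the log2(FPKM + 1) scale beside -0.11 over all genes tested. The groups did not overlap for 0 members upwards and 1 downwards, beside 13.8% and 23.8% of all genes. Among members under the filter, Skap1 and Pdcd1 were higher in each LPS library than in each control library, with means of 0.491 against 0.318 FPKM and 0.637 against 0.222 FPKM. They rested on 25 to 72 and 2 to 23 reads per library, and the shares above cover only genes past the filter.

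Between LPS plus PD and LPS no T cell gene passed, and most stood lower with PD. Limma called 0 of 25 members and 0% of all genes, and voom on the recovered reads also called 0 of each. At an unadjusted p below 0.05 there were 2 members, Btla and Cd5, and 653 of all genes (4.02%). The difference was below 0 for 22 of 25 members, beside 43.9% of all genes, with a median of -0.29 beside 0.03. The groups did not overlap for 4 members, all lower with PD, beside 4.02% of all genes in that direction and 3.99% in the other. They were Cd3e, Cd5, Icos and Btla, and of the members under the filter Themis and Pdcd1 joined them. Those 2 rested on 5 to 38 and 2 to 23 reads per library, and the shares cover only genes past the filter. Markers of other leukocytes went the same way to differing degrees. Below 0 were 4 of 4 pan-leukocyte markers (median -0.51), 8 of 8 tested B cell markers (median -0.58) and 6 of 7 monocyte and macrophage markers (median -0.35). So were 10 of 14 NK and cytotoxic markers (median -0.11), 5 of 8 neutrophil markers (median -0.10) and 3 of 4 tested dendritic cell markers (median -0.27). LPS replicate 2 led the pan-leukocyte sums, at 111, 431 and 184 FPKM in LPS and 150, 123 and 183 in LPS plus PD. The mean monocyte and macrophage sum was 2306 FPKM in LPS and 2536 in LPS plus PD. Limma and voom called 0 of each list. At an unadjusted p below 0.05 there was 1 B cell marker and 0 of the others, and their part in the T cell values was not tested.

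Compared with control, LPS plus PD lungs had less Tigit and less Btla RNA. These 2 of 25 members fell and 0 rose, beside 0.413% and 0.376% of all genes. The difference was below 0 for 23 of 25 members, beside 58.2% of all genes, with a median of -0.27 beside -0.07. The groups did not overlap for 4 members, namely Cd8a, Zap70, Btla and Tigit, all lower, beside 20.7% of all genes in that direction and 13.3% in the other. Both comparisons with control share the control libraries, and both comparisons with LPS plus PD share its 3 libraries, so their directions are not independent of each other. Counted over all 33 members, the mean was lower in LPS plus PD than in LPS for 30, lower in LPS plus PD than in control for 30, and lower in LPS than in control for 14.

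**Figure D1:**
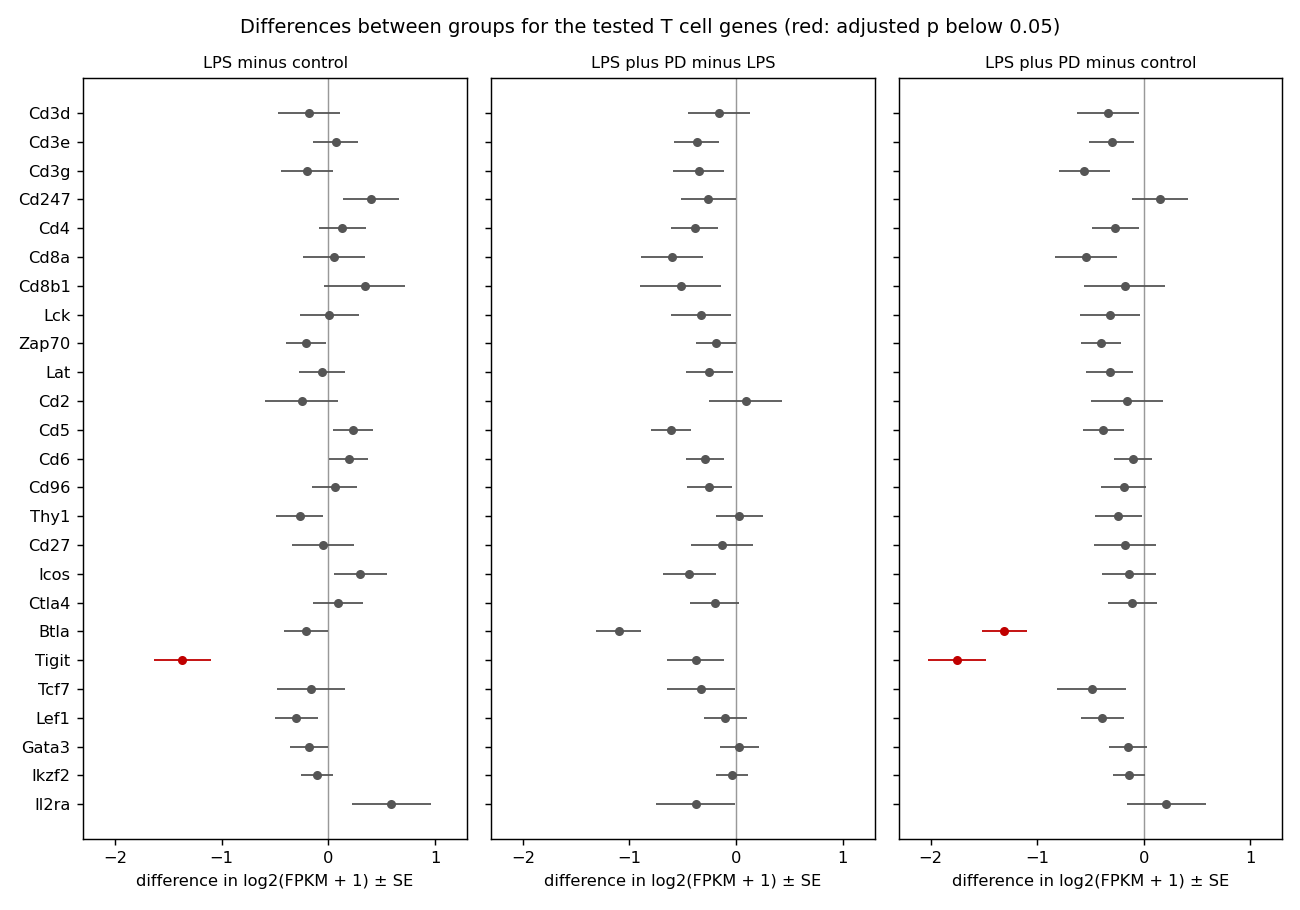
Difference of each tested T cell gene on the log2(FPKM + 1) scale in the 3 comparisons, with standard errors from limma over 9 libraries, ordered by role. Tigit and Btla lie apart from the other members, and in LPS plus PD against LPS 22 of 25 points lie below 0.

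Of the signalling subunits of the receptor, Cd3d and Cd3g had all LPS libraries inside the control range, whereas Cd3e and Cd247 had LPS libraries above it. Cd3d, the delta subunit (ENSMUSG00000032094, chr9:44981786-44987339 in GRCm38, plus strand), was expressed at 3.63, 0.982 and 2.52 FPKM in control replicates 1, 2 and 3, at 1.65, 1.52 and 2.31 in LPS and at 1.37, 1.21 and 2.04 in LPS plus PD. Control replicate 2 was the lowest of all 9 libraries and control replicate 1 the highest, so all groups overlapped. The log2 difference was -0.18 ± 0.29 (SE) for LPS against control and -0.16 ± 0.29 for LPS plus PD against LPS (limma adjusted p = 0.69 and 0.92).

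Cd3g, the gamma subunit, gave 2.89, 1.15 and 2.18 FPKM in control, 1.26, 1.91 and 1.64 in LPS and 0.759, 0.893 and 1.51 in LPS plus PD. The LPS plus PD libraries included the lowest pair, yet replicate 3 lay inside the range of both other groups. Its difference from control with PD was -0.56 ± 0.24 (limma adjusted p = 0.248). Cd3e, the epsilon subunit, stood at 1.27, 0.484 and 1.24 FPKM in control, 0.646, 1.43 and 1.16 in LPS and 0.622, 0.581 and 0.575 in LPS plus PD. Its PD libraries were close together at 0.593 ± 0.0258 (SD, n = 3) and all below the lowest LPS library, with a difference of -0.37 ± 0.21 (limma adjusted p = 0.866).

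Cd247, the zeta chain, was the receptor subunit with the largest difference above 0 in LPS against control. It stood at 0.629, 2.09 and 1.17 FPKM in LPS, against 0.958, 0.406 and 0.718 in control and 0.931, 0.479 and 1.24 in LPS plus PD. The difference was 0.40 ± 0.26 for LPS against control (limma adjusted p = 0.314), and the groups overlapped. Of its exonic bases, 56.4% are shared with Pou2f1 on the opposite strand, which averaged 1.51 FPKM. The sources used here do not say whether the libraries kept strand, so its level is uncertain.

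Cd3g and Cd3d lie head to head on chromosome 9, with start sites 1355 bases apart, and their upstream sequences are shown because the pair is transcribed outwards from 1 short interval. The windows are the 250 bases before the RefSeq transcript start in GRCm38.p6, at chr9:44981536-44981785 on the plus strand for Cd3d and chr9:44980432-44980681 on the minus strand for Cd3g. Capitals mark matches, on either strand, to short core motifs of factors that act in lymphocytes. The ETS core was searched as GGAAGT and shows as its reverse complement in Cd3d. The TCF/LEF core was searched as CTTTGA and shows in both orientations in Cd3d. The GATA motif was searched as AGATAA and shows in Cd3g.
Cd3d: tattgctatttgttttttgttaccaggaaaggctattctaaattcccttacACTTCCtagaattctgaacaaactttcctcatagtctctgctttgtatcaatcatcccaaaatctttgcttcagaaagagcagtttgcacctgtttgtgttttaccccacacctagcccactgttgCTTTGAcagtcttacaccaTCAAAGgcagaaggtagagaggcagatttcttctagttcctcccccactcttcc
Cd3g: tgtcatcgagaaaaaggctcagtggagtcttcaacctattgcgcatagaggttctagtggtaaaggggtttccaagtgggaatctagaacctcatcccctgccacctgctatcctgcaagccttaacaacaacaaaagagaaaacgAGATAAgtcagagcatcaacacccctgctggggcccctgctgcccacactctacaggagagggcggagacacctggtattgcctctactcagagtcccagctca
The Cd3d window held 1 ETS and 2 TCF/LEF matches with 41.2% G and C, and the Cd3g window held 1 GATA match with 51.6%. Such short motifs are common: the ETS core was in 19.7%, the TCF/LEF core in 13.8% and the GATA motif in 9.99% of 32851 windows of the same length. Promoter windows were found for 23 members, 32 windows in all, of which 11, 4 and 3 held these motifs. The matches describe the letters and not binding.

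The co-receptors behaved alike in that LPS replicate 2 was highest, or next to highest, and LPS plus PD tended to the low end. Cd4, the co-receptor of helper T cells, was at 1.31, 0.647 and 0.977 FPKM in control, 0.847, 1.63 and 1.01 in LPS and 0.301, 0.664 and 0.995 in LPS plus PD. Cd8a, a chain of the co-receptor of cytotoxic T cells that some mouse dendritic cells also carry, was at 1.78, 0.84 and 1.02 in control, 0.642, 2.44 and 1.04 in LPS and 0.619, 0.201 and 0.716 in LPS plus PD. For Cd8a each PD library lay below each control library, with a difference of -0.54 ± 0.29 (limma adjusted p = 0.341) from control and -0.60 ± 0.29 (limma adjusted p = 0.866) from LPS. Cd8b1, its partner chain, ranged from 0.215 FPKM in control replicate 2 to 2.36 FPKM in control replicate 1, so the controls alone spanned every other library. Of the 7 genes of the receptor complex and co-receptors, 0 passed limma in any comparison, 5 were above 0 in LPS against control, and 7 were below 0 in LPS plus PD against LPS. At an unadjusted p below 0.05 there were 0 of the 7 in LPS against control, 0 in LPS plus PD against LPS and 1 in LPS plus PD against control, beside 29.9%, 4.02% and 19.2% of all genes, and voom called 0 in each.

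**Figure D2:**
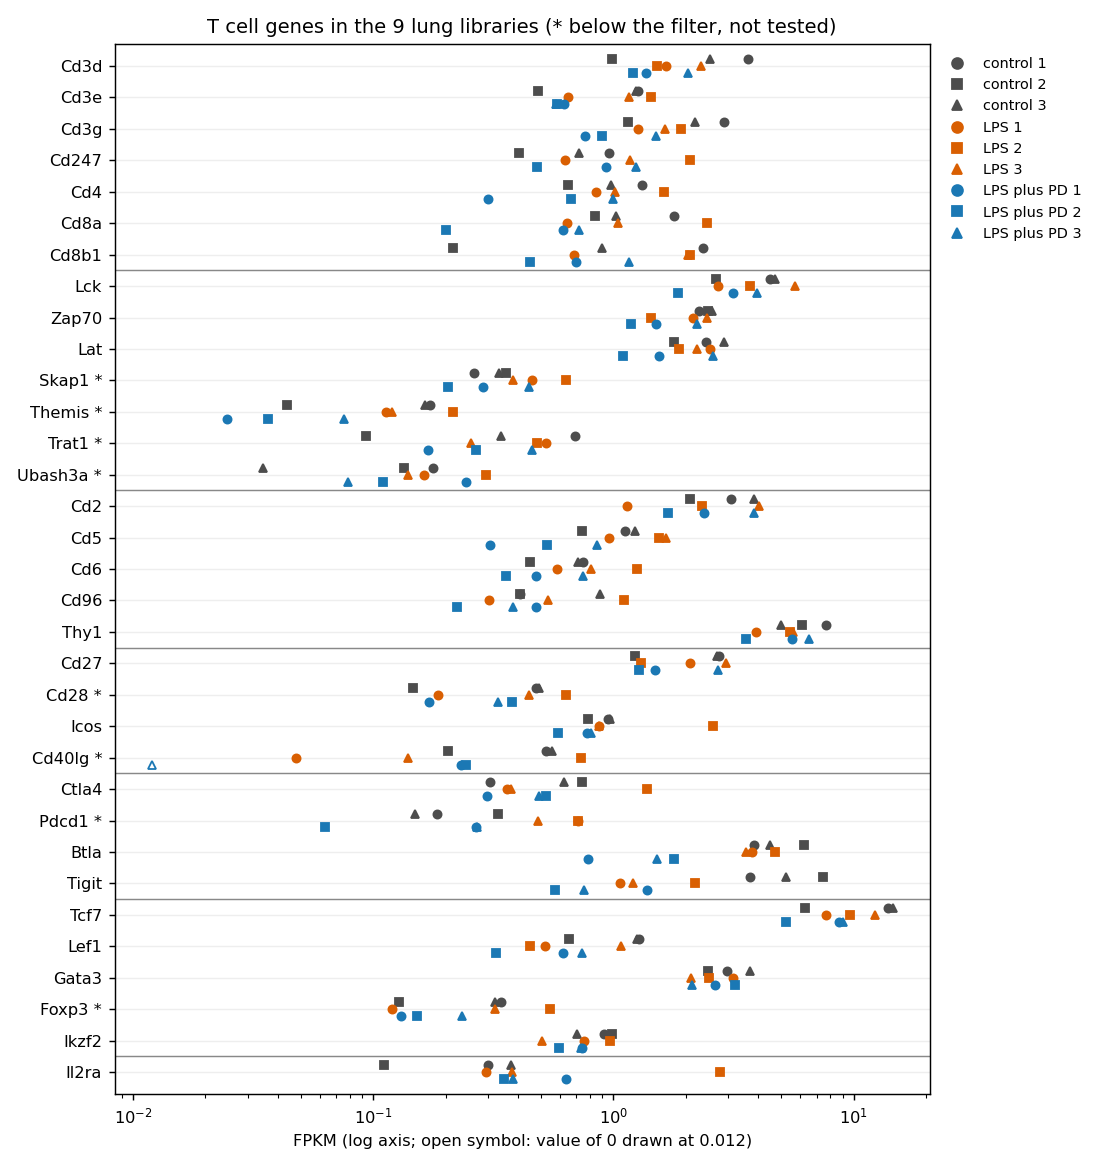
Level of each of the 33 T cell genes in each of the 9 libraries, grouped by role, as FPKM on a log axis, with 1 symbol per library and * for genes below the filter. LPS replicate 2 is the highest library for 16 genes and LPS plus PD replicate 2 the lowest for 13.

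The constant genes of the receptor chains are further transcripts of T cells, and 7 of the 10 listed were in the table. Trac, the alpha chain constant region, was expressed at 4.38, 2.32 and 4.21 FPKM in control, 3.2, 6.67 and 3.74 in LPS and 1.85, 1.5 and 3.45 in LPS plus PD. Its groups overlapped in all 3 comparisons, with a difference of -0.76 ± 0.31 between LPS plus PD and LPS (limma adjusted p = 0.866). Trbc2, a beta chain constant region, differed from control by -0.48 ± 0.41 with LPS and by -0.94 ± 0.41 with LPS plus PD (limma adjusted p = 0.448 and 0.26). Trdc, of the delta chain, differed by 0.16 ± 0.14 and Tcrg-C1, of the gamma chain, by -0.32 ± 0.18 in those respective comparisons (limma adjusted p = 0.472 and 0.368). Limma called 0 of the 7 in each comparison, as did voom, with 0, 1 and 0 at an unadjusted p below 0.05 beside 29.9%, 4.02% and 19.2% of all genes, and 6 of 7 were below 0 in LPS plus PD against LPS. The beta and gamma constant genes have close copies, so reads may be split between them.

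Of the proximal signalling genes 3 of 7 were tested, and 0 passed limma or voom or had an unadjusted p below 0.05 in any comparison. Lck, the kinase that starts the signal, was expressed at 4.46, 2.67 and 4.69 FPKM in control, 2.72, 3.7 and 5.67 in LPS and 3.15, 1.85 and 3.95 in LPS plus PD, and its LPS difference was 0.01 ± 0.28 (limma adjusted p = 0.984). Zap70, the kinase that docks on the phosphorylated subunits, was at 2.28, 2.47 and 2.58 in control, 2.14, 1.43 and 2.45 in LPS and 1.5, 1.18 and 2.23 in LPS plus PD. All 3 PD libraries lay below the lowest control library for Zap70, with a difference of -0.40 ± 0.19 (limma adjusted p = 0.281). Lat, the scaffold, was at 2.42, 1.79 and 2.89 in control, 2.51, 1.87 and 2.23 in LPS and 1.54, 1.1 and 2.6 in LPS plus PD, with overlap throughout.

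The other signalling members were too low to test and are given by their values. Skap1, an adaptor of integrin activation, was at 0.263, 0.358 and 0.334 FPKM in control, 0.458, 0.634 and 0.383 in LPS and 0.286, 0.204 and 0.447 in LPS plus PD. The LPS libraries all exceeded the controls there. Themis, an adaptor required in thymocyte selection, averaged 0.127 FPKM in control, 0.149 in LPS and 0.0457 in LPS plus PD, and its 3 PD libraries lay below the 3 LPS libraries. Trat1, a transmembrane adaptor of the receptor, and Ubash3a, a phosphatase family member that dampens receptor signalling, averaged 0.364 and 0.153 FPKM over all libraries, and their groups overlapped.

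A further 30 genes of T cell receptor signalling were in the table, many of them shared with other leukocytes, and 26 were tested. Limma and voom called 0 of 26 in every comparison, while 9 had an unadjusted p below 0.05 with LPS, 3 between LPS plus PD and LPS, and 2 between LPS plus PD and control, beside 29.9%, 4.02% and 19.2% of all genes. Cblb, a ubiquitin ligase that restrains T cell activation, was higher in each LPS library than in each control, by 0.66 ± 0.19 (limma adjusted p = 0.0742). Grap2, the adaptor Gads that links Lat to Lcp2, was at 1.54, 1.56 and 1.86 FPKM in LPS and 0.924, 0.721 and 1.13 in LPS plus PD. Its PD libraries lay below both other groups, by -0.46 ± 0.15 from LPS and -0.36 ± 0.15 from control (limma adjusted p = 0.866 and 0.222). Vav1, an exchange factor of most blood cells, differed from control with PD by 1.16 ± 0.46 and Bcl10, an adaptor of NF-kB signalling, with LPS by 0.44 ± 0.13 (limma adjusted p = 0.217 and 0.0772).

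Of the adhesion and surface proteins, Cd5 had LPS and LPS plus PD libraries that did not overlap. Cd5, a scavenger-type receptor that restrains receptor signalling and is also carried by B-1 cells, was at 1.12, 0.739 and 1.23 FPKM in control, 0.955, 1.55 and 1.66 in LPS and 0.307, 0.529 and 0.856 in LPS plus PD. Each PD library lay below each LPS library, by -0.61 ± 0.19 (unadjusted p = 0.011 from the limma fit over all genes, limma adjusted p = 0.866). Against control the groups overlapped, at -0.38 ± 0.19 (limma adjusted p = 0.312). Cd6, a related receptor, followed with means of 0.638 FPKM in control, 0.88 in LPS and 0.527 in LPS plus PD, and its groups overlapped.

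Cd2, an adhesion receptor of T and NK cells, was at 3.07, 2.08 and 3.83 FPKM in control, 1.14, 2.34 and 4.05 in LPS and 2.39, 1.68 and 3.83 in LPS plus PD. The LPS libraries spread widest and held both the lowest and the highest of the 9 values. Thy1, which lung fibroblasts also carry, was at 7.65, 6.1 and 4.99 in control, 3.92, 5.44 and 5.6 in LPS and 5.55, 3.55 and 6.51 in LPS plus PD. Thy1 and Cd2 were the surface members not lower in LPS plus PD than in LPS, with differences of 0.03 ± 0.22 and 0.09 ± 0.34 (limma adjusted p = 0.981 and 0.963). Cd96, a nectin-binding receptor of T and NK cells, averaged 0.564, 0.649 and 0.36 FPKM in control, LPS and LPS plus PD, with overlap.

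Among co-stimulatory receptors Icos, which appears on activated T cells, was at 0.952, 0.78 and 0.963 FPKM in control, 0.873, 2.6 and 0.867 in LPS and 0.774, 0.585 and 0.805 in LPS plus PD. LPS replicate 2 alone stood above the controls, and the PD libraries lay below all LPS libraries by a narrow margin, with a difference of -0.44 ± 0.25 (limma adjusted p = 0.866). Cd27, a TNF receptor family member of T and memory B cells, was at 2.75, 1.23 and 2.69 in control, 2.08, 1.3 and 2.93 in LPS and 1.49, 1.28 and 2.73 in LPS plus PD, and the groups overlapped in all comparisons. Cd28, the receptor of Cd80 and Cd86, averaged 0.371, 0.422 and 0.293 FPKM, and Cd40lg, the ligand through which helper T cells act on B cells, 0.427, 0.308 and 0.158 FPKM in the same order of groups. Both were under the filter, with overlapping groups, and Cd40lg was listed at 0 in LPS plus PD replicate 3.

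The inhibitory receptors held all the calls among T cell genes. Tigit, a receptor of T and NK cells for the poliovirus receptor (ENSMUSG00000071552, chr16:43648861-43664184 in GRCm38, minus strand), was expressed at 3.7, 7.47 and 5.23 FPKM in control replicates 1, 2 and 3. It was at 1.06, 2.18 and 1.21 in LPS and 1.38, 0.569 and 0.757 in LPS plus PD, from 60, 113 and 87 reads in control, 17, 32 and 20 in LPS and 23, 9 and 14 in LPS plus PD. Every control library lay above every library of both other groups, while those groups overlapped each other.

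Tigit fell by 1.37 ± 0.27 with LPS and by 1.75 ± 0.27 with LPS plus PD against control (limma adjusted p = 0.0403 and 0.0313), from a mean of 5.47 ± 1.9 FPKM to 1.48 ± 0.61 and 0.901 ± 0.424 (SD, n = 3 each). The difference between LPS plus PD and LPS was -0.38 ± 0.27 (limma adjusted p = 0.866). The direction held when any library was left out, but the calls were lost in most of those 9 fits: the LPS call held without LPS replicates 2 or 3 and was lost without any of the other 7, with adjusted p from 0.0268 to 0.152 over the 9. The LPS plus PD call held without control replicate 1 or LPS replicates 2 or 3 and was lost without any of the other 6, with adjusted p from 0.00551 to 0.139.

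Btla, an inhibitory receptor for Tnfrsf14 that B cells and dendritic cells also carry (ENSMUSG00000052013, chr16:45224315-45252895 in GRCm38, plus strand), was at 3.83, 6.22 and 4.47 FPKM in control, 3.77, 4.68 and 3.56 in LPS and 0.78, 1.79 and 1.52 in LPS plus PD. These values rested on 210, 318 and 251 reads in control, 205, 232 and 199 in LPS and 44, 96 and 95 in LPS plus PD. The 3 PD libraries lay below all 6 others, whereas control and LPS overlapped.

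Btla fell by 1.31 ± 0.21 with LPS plus PD against control (limma adjusted p = 0.037), from 4.84 ± 1.24 to 1.36 ± 0.524 FPKM (SD, n = 3 each). Against LPS, at 4 ± 0.593 FPKM, the difference was -1.10 ± 0.21 with an unadjusted p = 0.000652, which did not pass over all genes (limma adjusted p = 0.811). LPS against control gave -0.21 ± 0.21 (limma adjusted p = 0.526). The call against control held without LPS replicate 2 and was lost without any of the other 8 libraries, with adjusted p from 0.00993 to 0.149 and differences from -1.44 to -1.12.

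Both genes were highest in control replicate 2, the library in which 23 of 33 members were the lowest of the controls. Cells other than T cells carry both receptors, and their markers varied between groups. The 9 B cell markers summed to 30.2 to 52.3 FPKM in control, 27.3 to 57.6 in LPS and 17.3 to 32.5 in LPS plus PD. All 8 tested ones were below 0 in LPS plus PD against LPS. Limma and voom called 0 of them, and 1 had an unadjusted p below 0.05, beside 4.02% of all genes. The 6 dendritic cell markers summed to 13.9 to 22.3, 21.0 to 30.1 and 19.9 to 27.1 FPKM. Within them Cd209a, of monocyte-derived and conventional dendritic cells, was at 3.86, 2.05 and 4.61 FPKM in control, 1.66, 0.373 and 0.184 in LPS and 0.0729, 0.576 and 0.0329 in LPS plus PD. Both LPS groups lay wholly below control, by -1.42 ± 0.35 and -1.86 ± 0.35 (limma adjusted p = 0.0565 and 0.0551). Xcr1, of the cross-presenting type, was at 0.56, 0.972 and 0.872 FPKM in control, 0.551, 0.546 and 0.262 in LPS and 0.013, 0.287 and 0.0351 in LPS plus PD, whereas Clec9a, of the same type, was at 12.3, 6.13 and 9.31 in control and 20.2, 13.6 and 20.4 in LPS plus PD. The 14 NK and cytotoxic markers summed to 17.8 to 47.4 in control, 63.9 to 374 in LPS and 75.6 to 227 in LPS plus PD. The part of these cells in the Tigit and Btla values was not tested.

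The upstream windows of both genes are shown because they are the members that passed the test. They are the 250 bases before the RefSeq transcript start in GRCm38.p6, at chr16:43664185-43664434 on the minus strand for Tigit and chr16:45224087-45224336 on the plus strand for Btla. The deposited gene coordinates of Btla start earlier, at 45224315, so the end of its window, with the ETS match, lies within them. Capitals again mark motif matches on either strand. The RUNX core was searched as TGTGGT and shows as its reverse complement in both genes. An E-box, searched as CAGCTG, and the ETS core show in Btla, and the GATA motif shows in Tigit.
Tigit: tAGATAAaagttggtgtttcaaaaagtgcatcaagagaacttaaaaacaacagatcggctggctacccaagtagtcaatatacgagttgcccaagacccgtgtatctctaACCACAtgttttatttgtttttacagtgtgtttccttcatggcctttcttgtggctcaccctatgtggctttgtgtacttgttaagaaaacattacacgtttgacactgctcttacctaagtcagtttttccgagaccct
Btla: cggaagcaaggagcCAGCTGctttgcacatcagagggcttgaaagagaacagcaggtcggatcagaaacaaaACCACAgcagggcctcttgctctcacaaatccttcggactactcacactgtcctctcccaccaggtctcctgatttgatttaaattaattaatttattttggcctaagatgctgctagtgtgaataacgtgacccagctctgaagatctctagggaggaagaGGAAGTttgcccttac
Both windows held 1 RUNX core, which was in 14.0% of all 32851 windows and in 6 of the 32 member windows. Tigit also held the GATA motif, and Btla an E-box, found in 13.0% of all windows, and the ETS core.

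The other inhibitory receptors were low. Ctla4, the rival of Cd28 for its ligands, was at 0.306, 0.738 and 0.622 FPKM in control, 0.36, 1.38 and 0.375 in LPS and 0.297, 0.522 and 0.492 in LPS plus PD, with overlap in every comparison. Pdcd1, which encodes PD-1, was under the filter at 0.185, 0.33 and 0.15 FPKM in control, 0.714, 0.714 and 0.483 in LPS and 0.269, 0.063 and 0.27 in LPS plus PD. Its 3 LPS libraries lay above all 6 others, so within the inhibitory receptors Pdcd1 was highest in LPS while Tigit was highest in control.

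**Figure D3:**
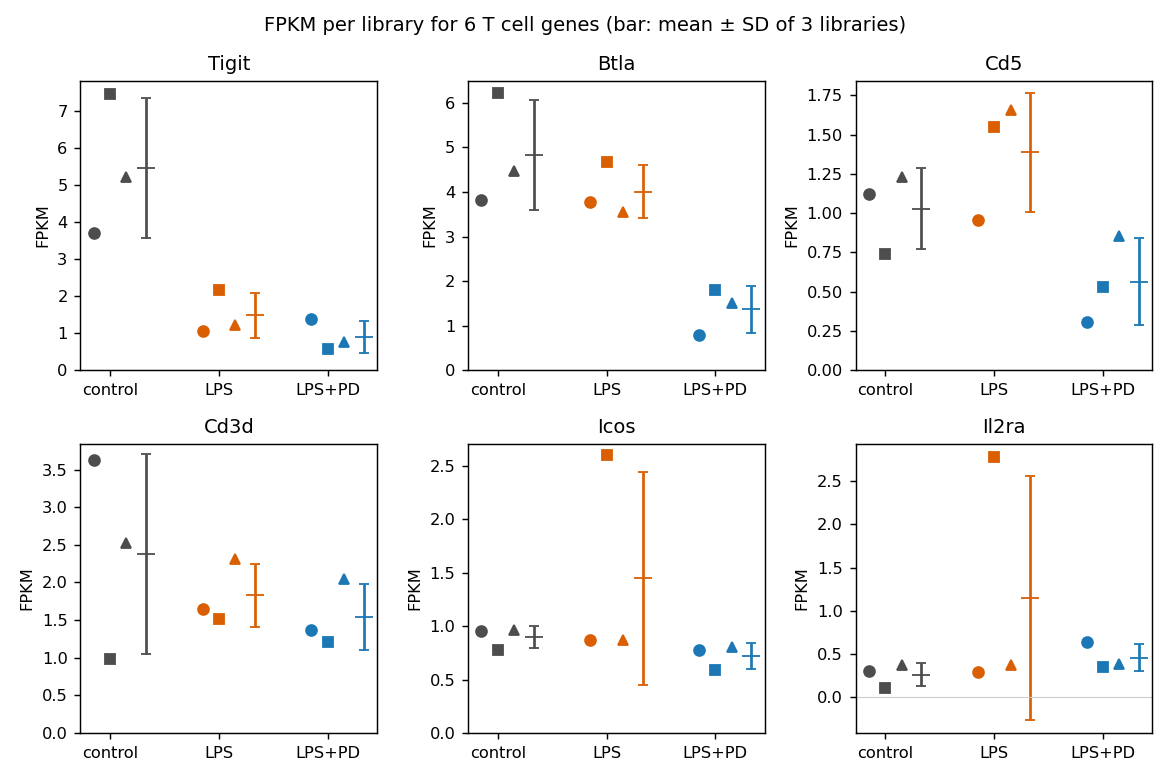
FPKM of selected T cell genes in each library by group, with points for libraries and the mean and SD of 3. Tigit separates control from both LPS groups, Btla separates LPS plus PD from both others, and Il2ra and Icos are highest in LPS replicate 2.

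The lineage transcription factors had 0 of 4 tested members past the threshold in each comparison with limma and with voom, and 0 with an unadjusted p below 0.05. Tcf7, the TCF-1 factor of naive and memory T cells, was the most abundant member, at 13.9, 6.28 and 14.5 FPKM in control, 7.64, 9.63 and 12.2 in LPS and 8.7, 5.24 and 9.03 in LPS plus PD. Its differences were -0.16 ± 0.32, -0.33 ± 0.32 and -0.49 ± 0.32 for the LPS effect, the PD effect on LPS and the joint difference from control (limma adjusted p = 0.757, 0.866 and 0.431). Control replicate 2 lay below every library except LPS plus PD replicate 2.

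Lef1, a related factor, was at 1.28, 0.652 and 1.25 FPKM in control, 0.518, 0.448 and 1.07 in LPS and 0.617, 0.325 and 0.741 in LPS plus PD, and differed from control by -0.30 ± 0.20 and -0.39 ± 0.20 (limma adjusted p = 0.343 and 0.329). Gata3, the factor of type 2 helper and innate lymphoid cells, was at 2.97, 2.48 and 3.71 in control, 3.15, 2.49 and 2.11 in LPS and 2.64, 3.21 and 2.12 in LPS plus PD. It was the member of this group that was not lower with PD than with LPS, at 0.03 ± 0.18 (limma adjusted p = 0.979). Ikzf2, which encodes Helios, was at 0.915, 0.987 and 0.703 in control, 0.753, 0.967 and 0.502 in LPS and 0.74, 0.592 and 0.731 in LPS plus PD. Foxp3, the factor of regulatory T cells, was under the filter with means of 0.263, 0.328 and 0.173 FPKM, and its groups overlapped.

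Il2ra, the alpha chain of the interleukin 2 receptor that activated and regulatory T cells carry, was high in 1 library. It was at 0.301, 0.111 and 0.375 FPKM in control, 0.294, 2.78 and 0.378 in LPS and 0.637, 0.351 and 0.383 in LPS plus PD. Apart from LPS replicate 2 the libraries lay between 0.111 and 0.637 FPKM, and the difference of LPS from control was 0.59 ± 0.37 (limma adjusted p = 0.301).

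LPS replicate 2 had the highest value of the 9 libraries for 16 of 33 members, among them Cd3e, Cd4, Cd8a, Icos, Ctla4 and Il2ra. LPS plus PD replicate 2 had the lowest for 13, among them Lck, Zap70, Lat, Tcf7 and Tigit, and control replicate 2 for 8. The pan-leukocyte markers Ptprc, Cd52, Laptm5 and Coro1a summed to 431 FPKM in LPS replicate 2, against 111 and 184 in the other LPS libraries, and the neutrophil markers to 4486 FPKM, against 1893 and 1234. In LPS plus PD replicate 2 the pan-leukocyte sum was 123, the lowest of its group. Their part in these ranks was not tested.

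**Figure D4:**
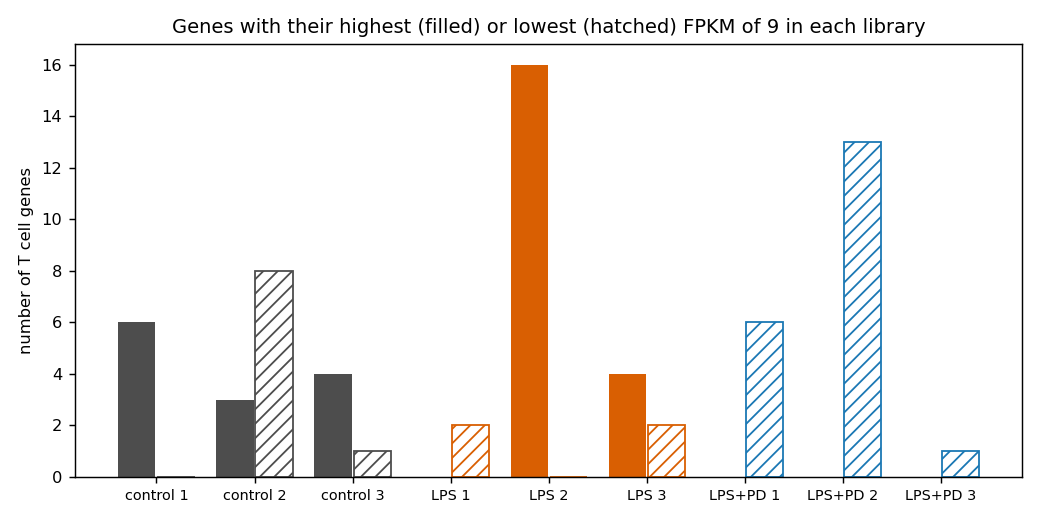
Number of the 33 T cell genes with their highest and their lowest value of all 9 libraries in each library. LPS replicate 2 holds 16 of the highest values and LPS plus PD replicate 2 holds 13 of the lowest.

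Sums of neutrophil, pan-leukocyte, NK and cytotoxic, and monocyte and macrophage markers were higher in every library of both LPS groups than in every control. The sums of T cell, B cell and dendritic cell markers overlapped between groups. The 8 neutrophil markers summed to 102 to 367 FPKM in control, 1234 to 4486 in LPS and 1287 to 3960 in LPS plus PD. Of these, 7 rose with LPS and 2 with LPS plus PD against control, beside 1.23% and 0.376% of all genes. Voom called 5 and 2 of them. Pan-leukocyte markers summed to 57.0 to 82.1, 111 to 431 and 123 to 183 FPKM. For LPS against control limma and voom called 0 of 4, and all 4 had an unadjusted p below 0.05, beside 29.9% of all genes. In that comparison limma called 1 of 14 NK and cytotoxic markers and 0 of 7 monocyte and macrophage markers, and voom 0 of each. At an unadjusted p below 0.05 there were 8 and 5 of them. The LPS and control libraries did not overlap for 6 of the 14, beside 13.8% of all genes, while others, such as Klrb1c and Klrd1, overlapped. The ratio of Cd3e to Ptprc, the CD45 gene of all leukocytes, was 0.269, 0.192 and 0.253 in control, 0.0765, 0.0303 and 0.109 in LPS and 0.0616, 0.075 and 0.0544 in LPS plus PD. Both LPS groups lay wholly below control, by -1.90 on the log2 scale each, with p = 0.1 in an exact two-sided permutation test, the smallest p that 3 libraries against 3 can give, and an adjusted p of 0.9 over the 18 ratio tests.

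Ratios within the T cell genes did not separate the groups. Tcf7 to Cd3e averaged 11.9 ± 1.01 in control, 9.7 ± 2.66 in LPS and 12.9 ± 3.48 in LPS plus PD, and Foxp3 to Cd3e 0.264 ± 0.00589, 0.281 ± 0.0967 and 0.294 ± 0.104 (SD, n = 3). Cd4 to Cd8a averaged 0.822 ± 0.12, 0.986 ± 0.325 and 1.73 ± 1.44, where LPS plus PD replicate 2 alone reached 3.31. The smallest exact permutation p among the 15 ratio tests that did not involve Ptprc was 0.2, for Cd8b1 to Cd8a in LPS plus PD against control.

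**Figure D5:**
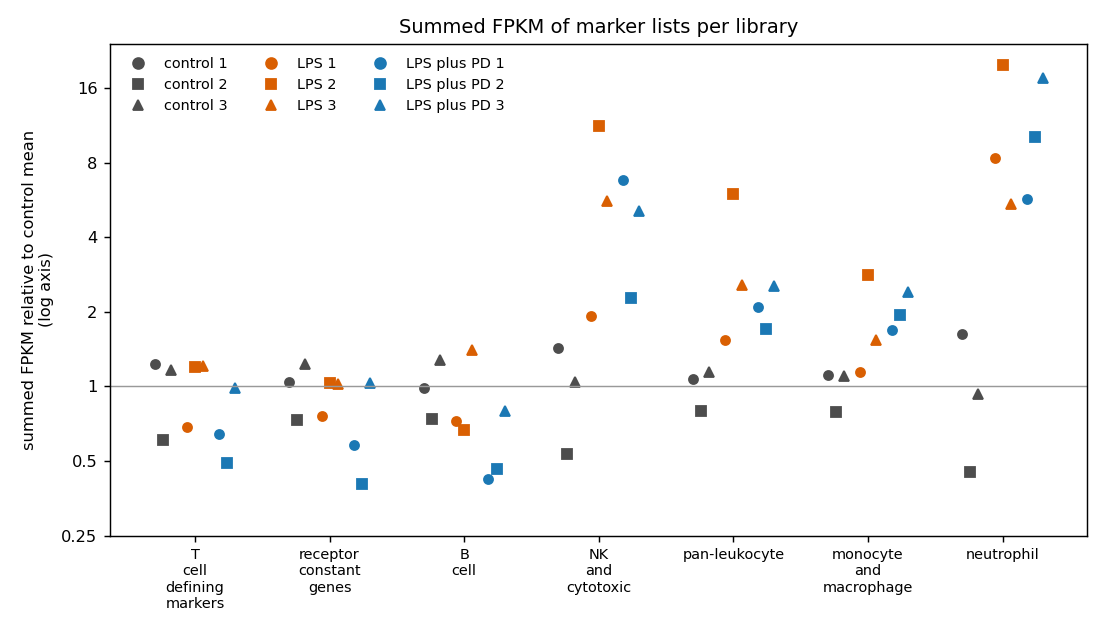
Summed FPKM of marker lists in each library relative to the mean of the 3 control libraries, on a log axis, for T cells and other cell types. T cell defining markers, whose sums span 8.71 to 21.8 FPKM, reach below the control mean in every group and overlap between groups. Neutrophil markers, at most 367 FPKM in control, are at least 1234 FPKM in both LPS groups.

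Among the further T cell lists, most of whose genes other cells share, the calls were in those of homing and activation. Of 9 tested genes of naive and homing T cells 2 rose and 0 fell with LPS, beside 1.23% and 2.55% of all genes. Voom called 1 of the 9 there, and 4 had an unadjusted p below 0.05 in limma, beside 29.9% of all genes. S1pr1, the receptor that lets lymphocytes leave tissue and that endothelium also carries, was at 61.1, 36.7 and 59.9 FPKM in control and 119, 132 and 93.4 in LPS, higher by 1.13 ± 0.23 (limma adjusted p = 0.0428), and at 126, 140 and 104 in LPS plus PD (1.24 ± 0.23 from control, limma adjusted p = 0.0565). Ccr7, which guides T and dendritic cells to lymph nodes, was higher by 1.02 ± 0.23 with LPS (limma adjusted p = 0.0498), at 3.78, 2.32 and 3.66 in control, 6.36, 10.3 and 6.39 in LPS and 6.04, 3.87 and 5.45 in LPS plus PD. Il7r, the interleukin 7 receptor of lymphocytes, was at 2.62, 4.65 and 1.72 in LPS and 1.27, 1.57 and 1.31 in LPS plus PD, without overlap, by -0.68 ± 0.26 (limma adjusted p = 0.866). Cxcr6, a receptor of lung-resident T cells, differed between these groups by -0.47 ± 0.17 (limma adjusted p = 0.866). Limma called 0 of 9 in LPS plus PD against LPS and 0 of 9 in LPS plus PD against control, with 2 and 4 at an unadjusted p below 0.05, beside 4.02% and 19.2% of all genes, and voom called 0 and 1.

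Of 15 tested activation genes 2 rose and 1 fell with LPS, beside 1.23% and 2.55% of all genes. Voom called 2 of the 15 there, and 7 had an unadjusted p below 0.05 in limma, beside 29.9% of all genes. Tnfrsf9, the co-stimulatory receptor 4-1BB, was at 0.284, 0.982 and 0.979 FPKM in control, 4.22, 14.6 and 5.7 in LPS and 7.31, 2.79 and 4.19 in LPS plus PD, a rise of 2.25 ± 0.43 with LPS (limma adjusted p = 0.04). Nr4a1, an orphan nuclear receptor induced by receptor signalling, rose by 1.01 ± 0.21 with LPS (limma adjusted p = 0.0427) from 12.9, 19.3 and 20.9 to 35, 30.8 and 43 FPKM, and its relative Nr4a2 fell by 0.82 ± 0.17 (limma adjusted p = 0.0445) from 3.16, 4.27 and 3.67 to 1.76, 1.23 and 2.05. Each of these calls was lost in most of the 9 fits that left out 1 library: they held without LPS replicate 3 for S1pr1, Ccr7 and Nr4a2, without LPS replicate 2 for Nr4a1, and without either for Tnfrsf9, with adjusted p up to 0.182. With LPS plus PD against LPS, Nr4a1 and Nr4a2 differed by -0.49 ± 0.21 and 0.42 ± 0.17 (limma adjusted p = 0.866 each). With LPS plus PD against control, Tnfrsf9 and Il2rb, the interleukin 2 receptor beta chain of NK and T cells, differed by 1.67 ± 0.43 and 1.55 ± 0.46 (limma adjusted p = 0.104 and 0.141). In these 2 comparisons 0 of 15 passed limma or voom, with 2 and 5 at an unadjusted p below 0.05, beside 4.02% and 19.2% of all genes.

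Limma and voom called 0 of 10 tested helper lineage genes and 0 of 6 tested regulatory T cell genes in every comparison. At an unadjusted p below 0.05 there were 0 and 3 of them with LPS, 1 and 0 between LPS plus PD and LPS, and 1 and 0 between LPS plus PD and control. The shares over all genes were 29.9%, 4.02% and 19.2%. Maf, a factor of interleukin-producing T cells and macrophages, differed by 0.47 ± 0.21 and Rora, of type 3 and type 2 lymphocytes, by 0.42 ± 0.19 with LPS (limma adjusted p = 0.171 and 0.173). Cxcr5, the follicle-homing receptor of helper T cells and B cells, and Stat4, of interleukin 12 signalling, were lower with PD than with LPS by -0.57 ± 0.18 and -0.34 ± 0.19, with no overlap (limma adjusted p = 0.866 each). Nt5e, the ectoenzyme CD73, and Ebi3, a subunit of interleukin 27 and 35, differed from control with LPS by 0.92 ± 0.31 and 1.65 ± 0.68 (limma adjusted p = 0.102 and 0.147), the latter led by LPS replicate 2 at 25.3 FPKM against 2.05 and 3.34.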

How the data were processed

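Gene FPKM values of 9 mouse lung libraries were used as deposited by the authors. Per the submitters' processing notes the tools were bcl2fastq, FastQC, HISAT2 and StringTie with GRCm38. The sources used here give no versions or settings for them. The labels describe polyadenylated RNA. Annotation came from GENCODE M21, which held 99.8% of the 32114 gene identifiers, 95.9% with the same coordinates.

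FPKM values moved in steps, and the lengths of 7792 single-exon genes gave the depth at which the steps were whole reads, 15.2 to 19.2 M reads per library. At that depth 99.0% to 99.4% of their values under 100 reads, and 97.3% of those over all genes, came out whole to within 0.05 reads. Reads of the members were whole by the annotated length for 26 and by the step of their own values for 7. With so few reads, counting error alone limits the low members.

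Genes with a mean of at least 0.5 FPKM (16227) were taken as log2(FPKM + 1), a scale that understates differences of low genes. In limma 3.58.1 under R 4.3.3, all 9 libraries entered 1 linear model of group means with trended moderated variances (prior df 2.83) and Benjamini-Hochberg adjustment over all genes at 0.05. Errors of differences are SE from that fit. Ratios were tested by exact permutation in scipy 1.17.1. Python 3.11.15 was used with pandas 2.3.3 and numpy 2.4.6, and matplotlib 3.10.9 drew the figures. The fit was tested on simulated data.

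The members, lists and rules were chosen with earlier results of these data known. By the naming rule each member is accounted for, with values per library for members past the threshold and for the highest and lowest difference of each role group. Of each further list up to 4 members past the threshold, or the pair with the smallest p, are named, except for 1 gene that is not reported here; other genes were chosen after their values were seen. Motifs were searched on both strands of RefSeq upstream windows, and the first window listed for a gene is printed. Of the members, 11 share exonic bases with another annotated gene, and 3 (Cd247, Lef1 and Foxp3) over 10% of them.

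The fit was repeated with pseudocounts of 0.1 or 0.01, with no filter or a mean of at least 5 FPKM, and with median-ratio, quantile or equal-total scaling. It was also repeated on just the 6 libraries compared, with array weights, without the variance trend, with a replicate block, and leaving out each library. Leaving out both control replicate 2 and LPS replicate 2, and voom on the recovered reads, were chosen after seeing the data.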

Additional observations from a re-analysis of the deposited data

How the results depend on the processing

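Calls of T cell genes were few and close to the threshold, while directions were steady: over 21 alternatives each, Tigit stayed below control in both comparisons (log2 -1.89 to -1.15 with LPS, adjusted p 0.00508 to 0.152, and -2.63 to -1.53 with LPS plus PD, adjusted p 0.00551 to 0.139), and so did Btla with LPS plus PD (-1.88 to -1.12, adjusted p 0.0064 to 0.149). Of all values of single genes under an alternative, 1504 kept sign and side of the threshold, 103 called ones lost the call, 82 uncalled ones changed sign and 0 called ones reversed. For LPS against control the count of T cell genes was 1, and 0 with a pseudocount of 0.01, no filter, a mean of at least 5 FPKM (2 members tested), median-ratio scaling, only the 6 libraries compared, voom, or without both control replicate 2 and LPS replicate 2. The 613 calls over all genes became 38 with no filter, 270 at a mean of at least 5 FPKM, 370 with median-ratio scaling (160 higher, 210 lower), 392 with equal totals (204 higher, 188 lower), 9 with only the 6 libraries compared, 3308 with array weights and 110 without both control replicate 2 and LPS replicate 2. Voom called 417, 0 and 127 genes in the 3 comparisons. For LPS plus PD against LPS the 0 calls over all genes became 1 with median-ratio scaling, 1 with quantile normalization, 2 with array weights and 1 without both libraries. For LPS plus PD against control the 2 T cell genes became 0 with no filter, 0 at a mean of at least 5 FPKM, and 1 (Tigit) with median-ratio scaling and with quantile normalization. The 128 calls there became 6 with no filter, 1193 with only the 6 libraries compared, 1568 with array weights and 604 without both libraries, and the median of the T cell genes moved from -0.27 to -0.47 with a pseudocount of 0.01 and to -0.48 with voom. Leaving out each library in turn gave 0 to 1 T cell genes, medians of -0.13 to 0.06 and 7 to 1038 calls over all genes for LPS against control, with the fewest without control replicate 2 and the most without LPS replicate 3. It gave 0 T cell genes, medians of -0.45 to -0.18 and 0 calls for LPS plus PD against LPS, and 0 to 2 T cell genes, medians of -0.43 to -0.15 and 2 to 1613 calls for LPS plus PD against control, with the fewest without LPS plus PD replicate 1 and the most without LPS replicate 2. A group left with 2 libraries was assumed to vary like the others. The median of all genes for LPS against control was -0.11 as deposited, -0.00 with median-ratio scaling, -0.03 with quantile normalization and 0.04 with equal totals. The cause of these shifts was not tested.

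Libraries of the same replicate number did not vary together. Of 9 correlations of same-numbered deviations, from -0.18 to 0.19, 1 exceeded 0.1, and 0 libraries correlated best with their own number. With 3 libraries per group, and LPS replicate 2 apart from the others, this cannot decide whether the numbers mark a pairing or a batch. With the replicate block, 0 T cell genes passed in each comparison, and the calls over all genes were 10, 0 and 4.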

Other observations

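LPS replicate 2, which held the highest value of 16 T cell genes, also held nearly all the interferon gamma RNA of the series, in genes chosen after their values were seen. Ifng, the cytokine of type 1 helper, cytotoxic and NK cells, was at 0.185, 36.4 and 0.18 FPKM in LPS replicates 1, 2 and 3, at 0.458 and 0.179 in control replicates 1 and 3, and at 0.134, 0.235 and 0.121 in LPS plus PD, and it was listed at 0 in control replicate 2. Cd69, an early activation marker of lymphocytes, was at 0.322, 9.29 and 0.278 FPKM in LPS and at no more than 0.488 in any library of the other groups. With 1 such library among 3, neither gene passed for LPS against control (log2 1.64 ± 1.13 and 0.94 ± 0.68, limma adjusted p = 0.343 and 0.368).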
